A study of Mus musculus with 12 samples.

Results

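The collagens and the genes that assemble them into matrix were described in mouse uteri labelled as conditional knock-outs (cKO) of Cdh1, P53 or both. The set held 45 genes listed by symbol, and a gene entered the results if a probe with that symbol was detected on at least 3 of the 12 arrays, with the brightest such probe taken. Of the 45 genes, 41 had a probe with their symbol and 39 had a detected probe, out of 12194 genes tested in the whole series. The 39 comprised 7 fibrillar collagen genes, 6 type IV collagen genes, 4 other collagen genes of the basement membrane zone, 6 microfibrillar, network and fibril-associated collagen genes, 3 crosslinking enzymes, 6 folding and hydroxylation genes, 3 proteoglycans and 4 elastic fibre and matricellular genes. Loxl3 (1 probe) and Postn (3 probes) were not above background on any of the 12 arrays. Col6a3, Col12a1, Loxl2 and Fbn1 were not analysed here.

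RNA from 12 whole uteri of female C57BL/6 mice aged 2 months was hybridised to Illumina bead arrays, with 1 array per uterus and 3 uteri per group. The groups were the double cKO (Cdh1-, P53-), the Cdh1 cKO (Cdh1-, P53+), the P53 cKO (Cdh1+, P53-) and the wild-type control (Cdh1+, P53+). Cdh1 encodes E-cadherin, the adhesion protein of epithelial junctions, and P53 is the tumour suppressor. The sources used here name no recombinase or cell type of deletion, no deleted exons, no estrous stage and no chip for an array.

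Collagens are secreted as triple-helical procollagens. Prolyl and lysyl hydroxylases modify the chains in the endoplasmic reticulum, the chaperone HSP47 stabilises the helix, and lysyl oxidases crosslink the assembled fibres outside the cell. Fibrillar collagens form the tensile fibres of the uterine stroma and muscle wall, type IV collagen forms the sheet of basement membranes under epithelium and around vessels and muscle cells, and small leucine-rich proteoglycans bind fibrils and set their width.

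Each array detected 44.3% to 47.9% of its 45281 probes. Correlations over probes ran from 0.963 to 0.990 for arrays of 1 group and from 0.957 to 0.987 for arrays of different groups. Markers of the tissue were present: 12 of 12 smooth muscle and 11 of 12 epithelial markers had a detected probe, with Epcam the exception. Cdh1 had log2 signals of 9.67, 8.18 and 7.36 in double cKO uteri, 9.74, 9.58 and 9.98 in the uteri labelled Cdh1 cKO, 9.26, 9.13 and 9.04 in P53 cKO uteri and 9.71, 9.41 and 10.08 in control uteri. The uteri labelled Cdh1 cKO, and replicate 1 of those labelled double cKO, therefore lay within the control range in this signal. Double cKO replicates 2 and 3 lay below that range, and so did all P53 cKO uteri, which are labelled Cdh1+. As the excised part of the gene is unknown here, the probe does not check the genotype, and the group names are those of the labels. P53 itself was not analysed here. Double cKO replicate 1 stood apart in oviduct and cilia markers, 5 of 10 of which were detected, with a median 1.77 log2 units above their mean over the arrays, where the other 11 arrays lay between -0.45 and 0.37. No label says whether uteri came from littermates, so p-values measure only the spread between these uteri.

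Signals are given throughout as log2 normalised intensity, and a difference is the mean of the first group minus the mean of the second, with the standard error (SE) of a limma model fitted to all 12 arrays. A gene was called where its p, adjusted over the 12194 genes by the Benjamini-Hochberg method, was below 0.05. In whole uteri, fewer cells of a type and less RNA per cell cannot be told apart. The 3 comparisons with control share the control uteri, and the 3 comparisons of the double cKO share the double cKO uteri.

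Against control, the double cKO uteri had 1 collagen gene higher and 1 lower of 39 called, the network collagen gene Col8a1 and the fibril-associated collagen gene Col14a1. That compares with 333 of 12194 genes called, or 2.73%, of which 1.91% were higher and 0.820% lower. The median log2 difference of the 39 genes was -0.17, and that of all genes was -0.04. In 13 of the 39 genes the 3 values of the double cKO and the 3 of control did not overlap, 4 with the double cKO above and 9 with it below, against 25.7% of all genes, of which 11.5% were above and 14.2% below. At an unadjusted p below 0.05 there were 3 higher and 2 lower, against 17.1% of all genes.

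Set against control, the uteri labelled Cdh1 cKO had none of the 39 genes called by limma (1 higher and 5 lower at an unadjusted p below 0.05, where all genes had 8.77%), beside 0.00820% of all genes. Values did not overlap in 7 of 39 genes, against 11.8% of all genes. Of the 7, 1 was above control and 6 below, against 5.23% and 6.56% of all genes, and the median difference was -0.18. The P53 cKO likewise had none of the 39 called by limma (1 at an unadjusted p below 0.05, where all genes had 2.38%), beside 0.0164% of all genes. In 1 of 39 genes, Col16a1, the P53 cKO values lay below control without overlap, against 4.93% of all genes below and 9.06% in either direction, and the median difference was -0.01.

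**Figure D1:**
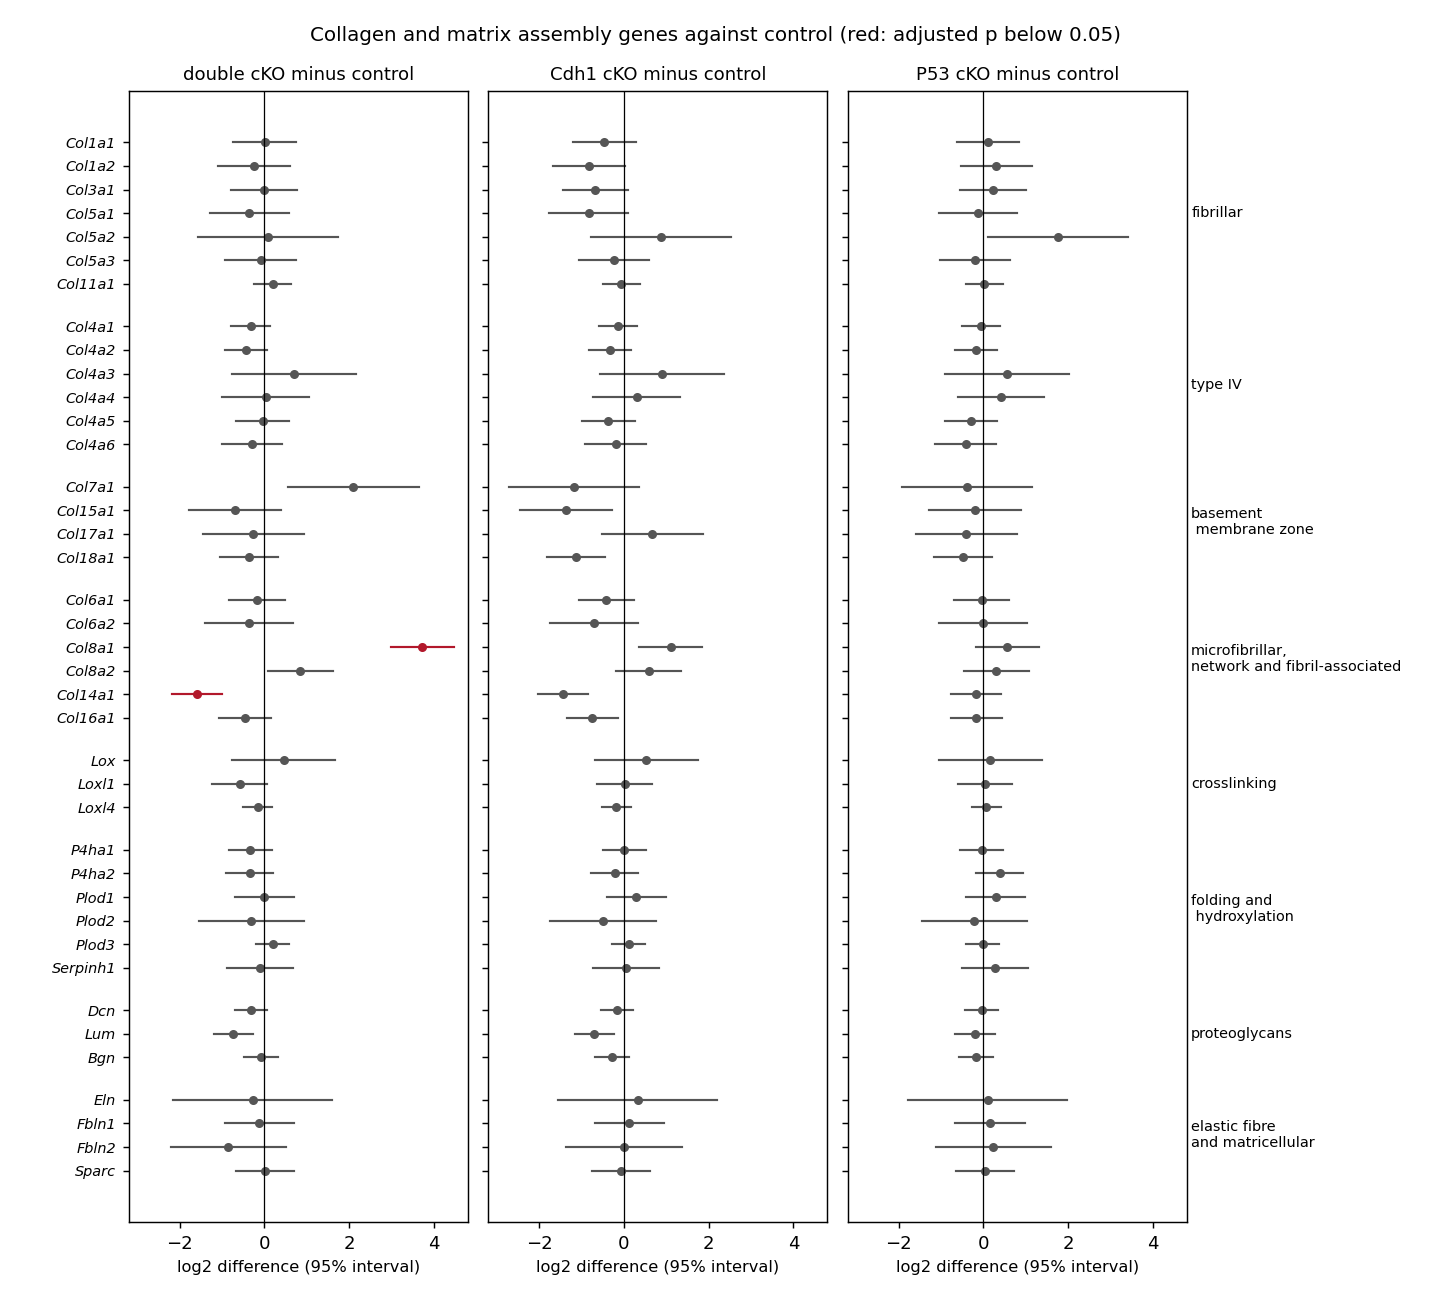
Log2 difference of each of the 39 genes from control (x axis), in double cKO, in the uteri labelled Cdh1 cKO and in P53 cKO uteri, with points for the difference and bars for its 95% interval, grouped by role. Col8a1 at 3.73 and Col14a1 at -1.59 in double cKO are drawn in red as the genes with an adjusted p below 0.05.

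Against the uteri labelled Cdh1 cKO, the double cKO had 1 of 39 genes called, Col8a1, which was higher, beside 0.492% of all genes in either direction and 0.459% higher, and values did not overlap in 4 of 39, beside 10.8%. Against P53 cKO it had 2 of 39 called, Col8a1 higher and Col14a1 lower, beside 1.44% of all genes, of which 1.27% were higher and 0.172% lower, and values did not overlap in 6 of 39, beside 20.8%. The uteri labelled Cdh1 cKO against P53 cKO had none called by limma (0 higher and 6 lower at an unadjusted p below 0.05, where all genes had 5.95%), beside 0.0164% of all genes, and 5 of 39 did not overlap, all with the Cdh1 cKO below, beside 10.2%, of which 6.10% were below. For the interaction, defined as double cKO and control minus both single cKO groups, limma had none of 39 called (3 above 0 and 1 below at an unadjusted p below 0.05, where all genes had 4.78%), beside 0.0984% of all genes. The medians of the 39 genes were 0.03, -0.23, -0.11 and 0.07 in these 4 comparisons, where all genes had -0.02, -0.04, -0.01 and -0.01.

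Among the network collagens, Col8a1 rose in the double cKO. It encodes the alpha 1 chain of type VIII collagen, a short-chain collagen that forms lattices under endothelium and in remodelling vessel walls. The gene lies on the minus strand of chromosome 16, from 57624256 to 57754737 of GRCm38.p6. Its promoter is shown because no other gene of the set was called higher, with GC boxes in capitals. These are the 250 bases upstream of the annotated start, chr16:57754738-57754987, minus strand, 5′ to 3′, from RefSeq.
Col8a1: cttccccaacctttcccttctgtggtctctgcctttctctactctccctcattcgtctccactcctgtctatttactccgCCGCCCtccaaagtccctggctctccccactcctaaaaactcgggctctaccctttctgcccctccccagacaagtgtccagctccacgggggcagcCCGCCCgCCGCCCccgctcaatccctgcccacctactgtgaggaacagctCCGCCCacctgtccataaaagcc

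The window held 4 GC boxes (GGGCGG), all read on the opposite strand, and 60.8% of its bases were G or C, where the median window had 52%. Motifs were searched on both strands of this window, which RefSeq gave for 32 of the 45 listed genes and 27025 genes in all. A GC box was in 21 of the 32 windows and in 32.9% of all windows. CCAAT was in 11 of 32 and 34.5% of all, and TATAAA in 3 of 32 and 13% of all. The AP-1 motif TGANTCA was in 1 of 32, Col6a1, and 6.87% of all, the E-box CACGTG in 1 of 32, Fbln1, and 6.05% of all, and the Smad-binding element GTCTAGAC in 0 of 32 and 0.174% of all. A match says only that these letters are in the window.

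Col8a1 had log2 signals of 8.17, 9.28 and 9.10 in the 3 double cKO uteri, 6.05, 5.87 and 6.77 in the uteri labelled Cdh1 cKO, 5.89, 5.75 and 5.43 in P53 cKO uteri, and 5.14, 5.55 and 4.68 in control uteri. Every double cKO uterus was above every other uterus, and the uteri labelled Cdh1 cKO lay above control without overlap. The probe was detected on 2 of the 3 control arrays and on all 9 others. The means were 8.85 ± 0.59 (SD, n = 3) in double cKO and 5.13 ± 0.44 in control, a log2 difference of 3.73 ± 0.34 (SE), or 13.2-fold (adjusted p = 3.26e-04). The size depended on the treatment of background, with 2.84 at an offset of 50 and 2.18 without background correction, and both passed. Against the uteri labelled Cdh1 cKO the difference of the double cKO was 2.62 ± 0.34, or 6.15-fold (adjusted p = 0.00663). That call was lost with only the arrays compared in the model (adjusted p = 0.0981). Against P53 cKO it was 3.16 ± 0.34, or 8.96-fold (adjusted p = 0.00138). Without background correction that difference was 1.99, which passed too. The single cKO groups did not pass, at 1.11 ± 0.34 in the Cdh1 cKO (adjusted p = 0.375) and 0.56 ± 0.34 in P53 cKO (adjusted p = 0.9995), each against control. The interaction was 2.06 ± 0.48 and did not pass (adjusted p = 0.365). A further probe of Col8a1, detected on 8 arrays, gave 7.25, 8.13 and 7.68 in double cKO uteri and 4.50, 4.81 and 4.51 in control uteri, a difference of 3.08. Without double cKO replicate 1, which stood apart in oviduct markers, the difference of the brightest probe from control was 4.07 (adjusted p = 2.54e-04).

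Col8a2 encodes the partner chain of type VIII collagen. Its signals were 7.45, 8.48 and 7.90 in double cKO uteri, 7.36, 8.32 and 7.37 in the uteri labelled Cdh1 cKO, 7.72, 7.06 and 7.43 in P53 cKO uteri and 6.60, 7.43 and 7.27 in control uteri. The lowest double cKO value exceeded the highest control value by a narrow margin, and the other groups overlapped with control. The double cKO difference from control was 0.84 ± 0.35 and did not pass (adjusted p = 0.240).

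**Figure D2:**
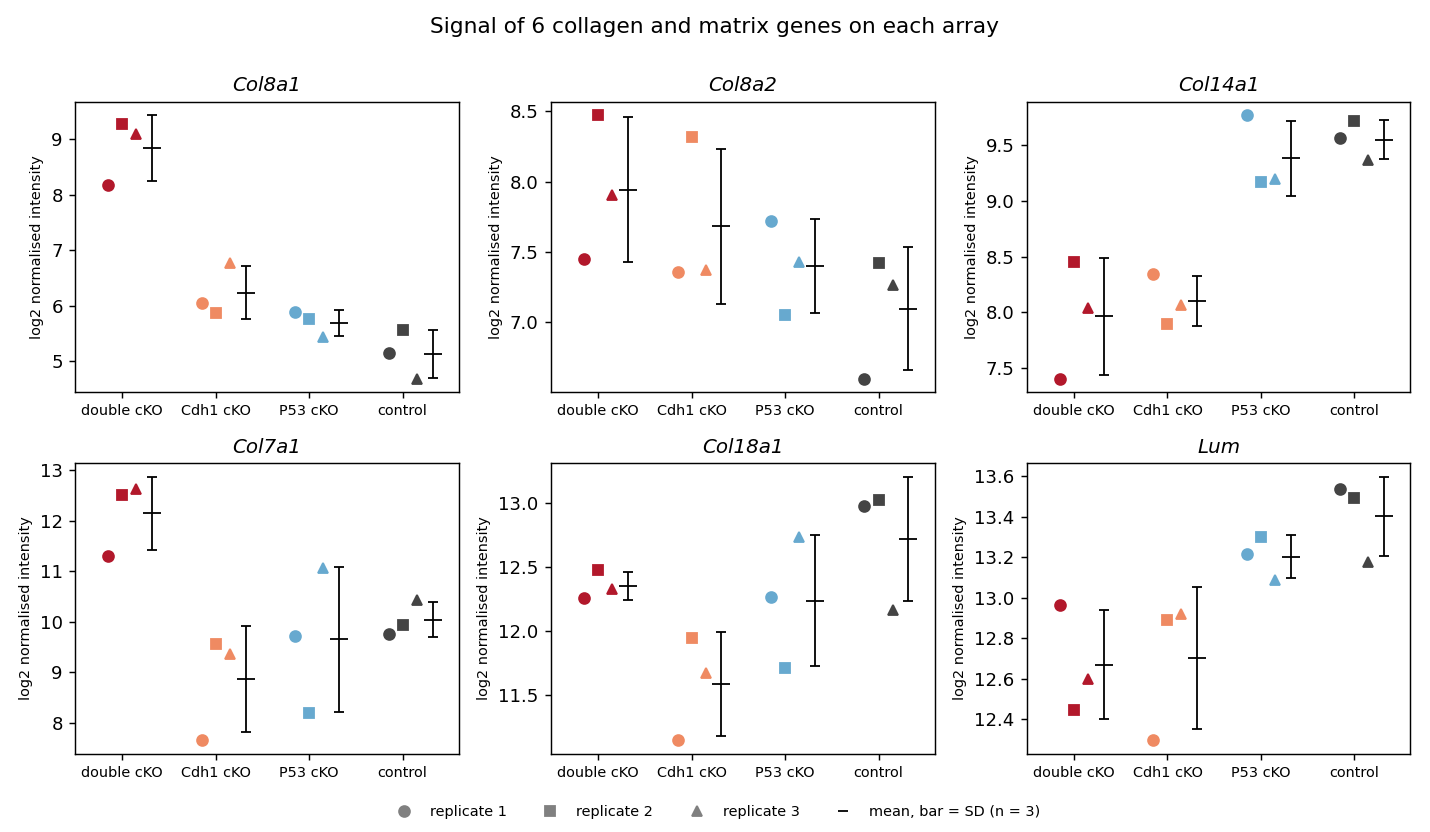
Log2 normalised intensity (y axis) of Col8a1, Col8a2, Col14a1, Col7a1, Col18a1 and Lum on each of the 12 arrays by group, with symbols for replicates and lines for mean and SD (n = 3). The 3 double cKO arrays sit between 8.17 and 9.28 for Col8a1, above all other arrays, and the 6 arrays of the double cKO and the Cdh1 cKO sit between 7.41 and 8.45 for Col14a1, below the other 6.

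Col14a1 encodes the fibril-associated collagen XIV, which binds the surface of collagen fibrils and limits their fusion. It spans 55307644 to 55520803 of chromosome 15. It fell in the double cKO, to 7.41, 8.45 and 8.04, against 9.56, 9.72 and 9.37 in control uteri. Those labelled Cdh1 cKO had 8.35, 7.90 and 8.07, and P53 cKO uteri had 9.77, 9.17 and 9.20. The 6 uteri labelled Cdh1- therefore lay below the 6 labelled Cdh1+ without overlap. Against control the double cKO differed by -1.59 ± 0.27, or 3.00-fold lower (adjusted p = 0.0111), and against P53 cKO by -1.42 ± 0.27, or 2.67-fold lower (adjusted p = 0.0277). Uteri labelled Cdh1 cKO differed from control by -1.45 ± 0.27 (adjusted p = 0.199) and from P53 cKO by -1.28 ± 0.27 (adjusted p = 0.524), and neither passed. The double cKO differed from the uteri labelled Cdh1 cKO by -0.14 ± 0.27, with a 95% interval from -0.73 to 0.45, and P53 cKO from control by -0.17 ± 0.27, with an interval from -0.76 to 0.42. A further probe of Col14a1 gave -1.14 for the double cKO and -1.40 for the uteri labelled Cdh1 cKO, each against control. The call against control was lost without control replicate 2 (adjusted p = 0.0631). The call against P53 cKO was lost without each of 5 of the 6 arrays in turn, double cKO replicate 2 being the exception, with adjusted p up to 0.136. Without double cKO replicate 1, Col14a1 differed from control by -1.31 (adjusted p = 0.0279).

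Other genes of this role were not called. Col16a1, whose product is also fibril-associated, had 11.28, 12.23 and 12.04 in double cKO uteri, 11.19, 11.37 and 12.14 in the uteri labelled Cdh1 cKO, and 12.30, 12.33 and 12.30 in control uteri. P53 cKO uteri had 12.16, 12.17 and 12.09, so each of the cKO groups lay below the narrow range of control. Col6a1 and Col6a2 encode chains of the beaded microfilament collagen VI. Col6a1 had 14.20, 14.58 and 14.50 in double cKO uteri, 14.33, 13.44 and 14.79 in the uteri labelled Cdh1 cKO, 14.37, 14.82 and 14.47 in P53 cKO uteri and 14.49, 14.49 and 14.82 in control uteri. The groups overlapped, with Cdh1 cKO replicate 2 the lowest. Double cKO and control differed by -0.17 ± 0.30 for Col6a1 (adjusted p = 0.842) and by -0.37 for Col6a2.

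In the basement membrane zone, Col7a1 had the widest spread between groups. Collagen VII forms the anchoring fibrils that tie epithelial basement membranes to the stroma. The gene spans 108953586 to 108984875 on the plus strand of chromosome 9. The 250 bases upstream of its annotated start, chr9:108953336-108953585, plus strand, 5′ to 3′, from RefSeq GRCm38.p6, are shown for comparison with Col8a1, with a CCAAT box and a GC box in capitals.
Col7a1: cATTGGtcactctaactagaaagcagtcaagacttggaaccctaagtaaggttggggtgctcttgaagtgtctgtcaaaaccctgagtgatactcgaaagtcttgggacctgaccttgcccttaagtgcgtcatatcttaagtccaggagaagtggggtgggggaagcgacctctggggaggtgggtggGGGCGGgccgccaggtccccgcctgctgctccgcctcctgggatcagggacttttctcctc

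This window held 1 GC box, where that of Col8a1 held 4, and 1 CCAAT box, read on the opposite strand. The signals of Col7a1 were 11.30, 12.51 and 12.62 in double cKO uteri, 7.66, 9.57 and 9.36 in the uteri labelled Cdh1 cKO, 9.71, 8.19 and 11.07 in P53 cKO uteri and 9.76, 9.93 and 10.43 in control uteri. The double cKO uteri were above every other uterus, the uteri labelled Cdh1 cKO were below control, and the P53 cKO uteri spread across both sides of control. The differences of the double cKO were 2.10 ± 0.70 from control (adjusted p = 0.144), 3.28 ± 0.70 from the Cdh1 cKO (adjusted p = 0.0904) and 2.49 ± 0.70 from P53 cKO (adjusted p = 0.129), and none passed. Uteri labelled Cdh1 cKO differed from control by -1.18 ± 0.70 (adjusted p = 0.676), and P53 cKO by -0.39 ± 0.70 (adjusted p = 0.9995). The interaction was 3.67 ± 0.98 (adjusted p = 0.534). A further probe, detected on 9 arrays, gave 1.85 for the double cKO and -1.02 for the uteri labelled Cdh1 cKO, each against control.

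Col18a1 encodes collagen XVIII, a heparan sulphate proteoglycan of epithelial and vascular basement membranes. It had 12.26, 12.47 and 12.33 in double cKO uteri, 11.14, 11.94 and 11.67 in the uteri labelled Cdh1 cKO, 12.27, 11.71 and 12.73 in P53 cKO uteri and 12.98, 13.02 and 12.16 in control uteri. The uteri labelled Cdh1 cKO were below every control uterus and every double cKO uterus. Their difference from control was -1.13 ± 0.31 (adjusted p = 0.323), that of the double cKO from control was -0.37 ± 0.31 (adjusted p = 0.611), and that of the double cKO from the Cdh1 cKO was 0.77 ± 0.31 (adjusted p = 0.529). None passed, and the interaction of 1.25 ± 0.44 did not either (adjusted p = 0.895). The double cKO differed from P53 cKO by 0.12 ± 0.31, and P53 cKO from control by -0.48 ± 0.31.

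Collagen XV, a relative of collagen XVIII in the basement membranes of muscle and vessels, is encoded by Col15a1. It had 9.995, 10.75 and 10.94 in double cKO uteri, 10.31, 8.59 and 10.78 in the uteri labelled Cdh1 cKO, and 11.19, 11.05 and 11.53 in control uteri. Both groups lay below control without overlap, with log2 differences of -0.69 and -1.37. Col17a1, a transmembrane collagen of hemidesmosomes, was dim, with a single high value of 7.58 in Cdh1 cKO replicate 3 and all other arrays between 4.52 and 5.50.

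The type IV genes showed small differences. Col4a1 and Col4a2 encode the chains of the major basement membrane network and lie on opposite strands of chromosome 8, with annotated starts 21 bases apart. Col4a1 had 12.62, 12.24 and 12.35 in double cKO uteri, 12.28, 12.54 and 12.93 in the uteri labelled Cdh1 cKO, 12.36, 12.93 and 12.70 in P53 cKO uteri and 12.63, 12.78 and 12.77 in control uteri. Col4a2 had 12.22, 12.19 and 12.02 in double cKO uteri, 11.99, 12.02 and 12.71 in the uteri labelled Cdh1 cKO, 12.12, 12.73 and 12.36 in P53 cKO uteri and 12.41, 12.62 and 12.68 in control uteri. Every double cKO value of each gene was below every control value, for Col4a1 by a margin of under 0.01, but the differences of -0.32 ± 0.21 (adjusted p = 0.472) and -0.43 ± 0.22 (adjusted p = 0.363) did not pass. Over the 6 type IV genes the differences of the double cKO from control ran from -0.43 to 0.69, with a median of -0.16. The highest was that of Col4a3, with 5.62, 5.91 and 6.46 in double cKO uteri and 5.13, 5.20 and 5.59 in control uteri. Col4a3 was also high on Cdh1 cKO replicate 3 and P53 cKO replicate 2, at 7.68 and 7.20.

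None of the 7 fibrillar genes was called in any of the 7 comparisons. Against control the fibrillar differences ran from -0.35 to 0.20 in double cKO, with 3 of 7 above 0, where all genes had 44.6%, and a median of -0.01. In none of the 7 genes did double cKO values separate from control. Col1a1, the alpha 1 chain of type I collagen, had 13.10, 13.76 and 13.57 in double cKO uteri, 12.91, 12.47 and 13.64 in the uteri labelled Cdh1 cKO, 13.52, 14.10 and 13.11 in P53 cKO uteri and 13.49, 13.15 and 13.76 in control uteri. The groups overlapped, and the double cKO difference from control was 0.01 ± 0.34, with a 95% interval from -0.73 to 0.75 (adjusted p = 0.993). Col3a1, the type III collagen chain of soft stroma, differed by -0.01 with an interval from -0.78 to 0.76. A further Col3a1 probe, detected on 12 of 12 arrays, gave 0.14. For the uteri labelled Cdh1 cKO against control that probe gave -1.48, where the brightest gave -0.67. For P53 cKO against control it gave -0.78, where the brightest gave 0.23, so size and sign depended on the probe. Col11a1, a minor chain within fibrils, was detected on 4 of 12 arrays. It had 5.12, 4.78 and 4.96 in double cKO uteri, 4.56, 4.70 and 4.82 in the uteri labelled Cdh1 cKO, 4.81, 5.02 and 4.497 in P53 cKO uteri and 4.46, 5.07 and 4.74 in control uteri. All of these are near background, and the double cKO differed from control by 0.20 ± 0.20 (adjusted p = 0.681).

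The fibrillar differences of the uteri labelled Cdh1 cKO from control ran from -0.83 to 0.88 with a median of -0.46 and 6 of 7 below 0, where all genes had 53.6%, and values overlapped in all 7. Those of P53 cKO ran from -0.20 to 1.77, with a median of 0.11. The value of 1.77 belonged to Col5a2, a regulatory fibrillar chain detected on 7 of 12 arrays, which had 5.93, 7.57 and 6.68 in P53 cKO uteri and 6.06, 4.34 and 4.48 in control uteri. These overlapped, and the difference did not pass (adjusted p = 0.9995). Further Col5a2 probes, detected on 7 and 11 arrays, gave 0.59 and 0.13 for P53 cKO against control, so the size depended on the probe.

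Cdh1 cKO replicate 2 and P53 cKO replicate 2 lay at opposite ends of the fibrillar signal. As the median over the 7 genes, each relative to its own mean over the 12 arrays, they stood at -0.91 and 0.72. Double cKO arrays ranged from -0.28 to 0.22, the other Cdh1 cKO arrays stood at -0.34 and 0.02, the other P53 cKO arrays at 0.14 and -0.19, and control arrays ranged from -0.17 to 0.38. The spread within the uteri labelled Cdh1 cKO and within P53 cKO was therefore wider than the distance of the double cKO from control. The same 2 arrays were the lowest and the highest in elastic fibre and matricellular genes of their groups, at -0.88 and 0.78.

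**Figure D3:**
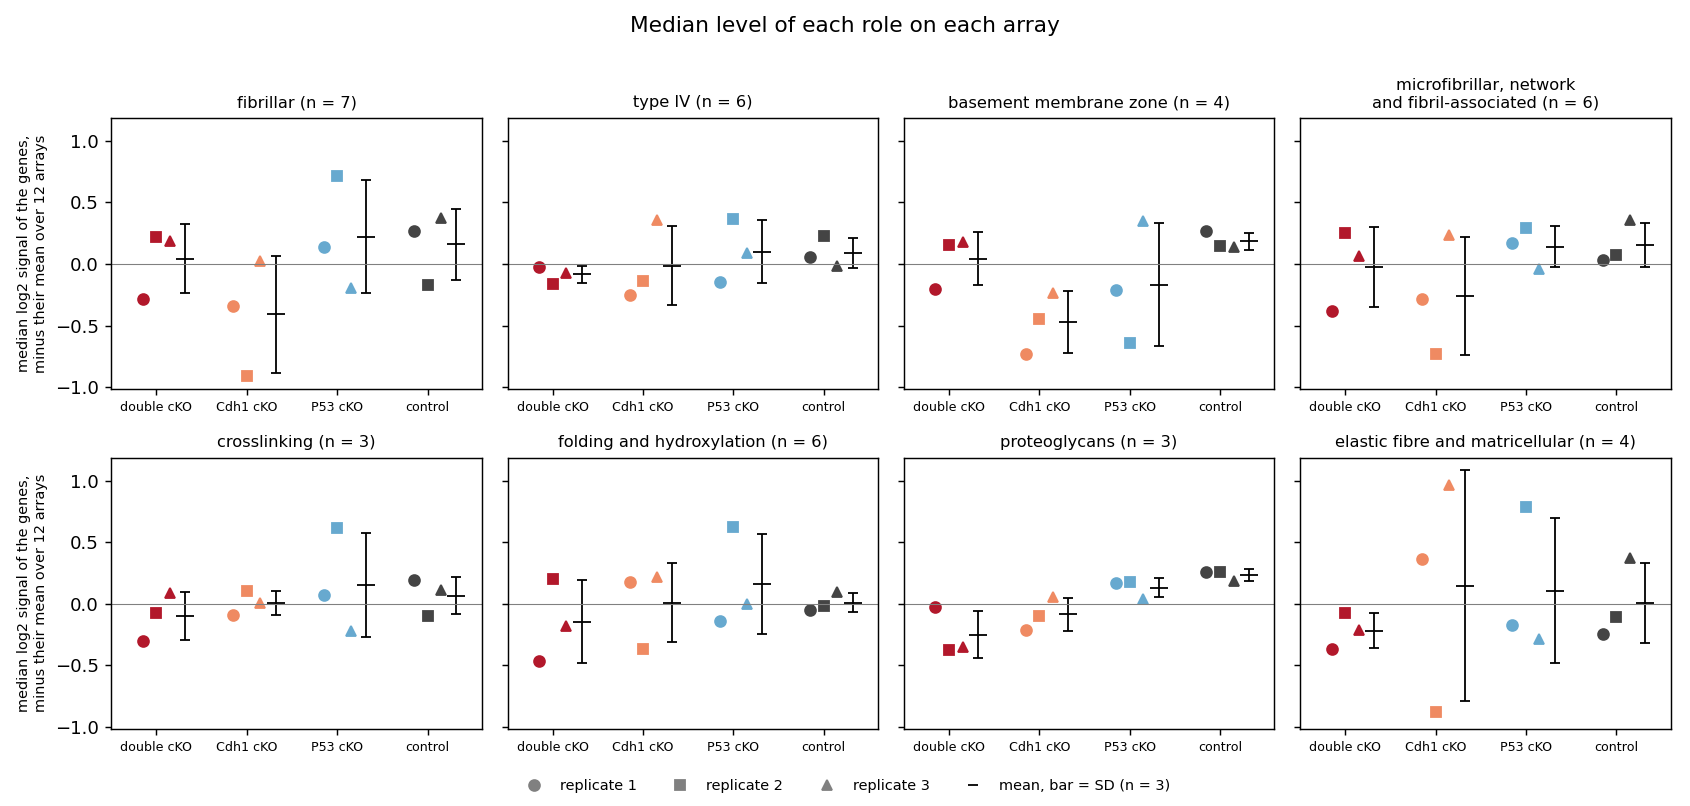
Median log2 signal of the genes of each role on each array, relative to their mean over the 12 arrays (y axis), by group, with symbols for replicates and lines for mean and SD (n = 3). The fibrillar panel shows Cdh1 cKO replicate 2 at -0.91 and P53 cKO replicate 2 at 0.72, and the proteoglycan panel shows the double cKO between -0.37 and -0.03, below control at 0.18 to 0.26.

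Of 6 pairs of chains that share a trimer, 3 varied together by every measure used. Chains of different trimers were not correlated here, so the relation cannot be called particular to trimer partners. Over the 12 arrays Col1a1 and Col1a2 correlated with Pearson's r = 0.92 (permutation test, adjusted p = 1.8e-04) and Spearman's rho = 0.80 (adjusted p = 0.0053), and Col6a1 and Col6a2 with r = 0.96 (adjusted p = 1.8e-04) and rho = 0.83 (adjusted p = 0.0044). Col4a1 and Col4a2 correlated with r = 0.89 (adjusted p = 5.6e-04) and rho = 0.91 (adjusted p = 6.0e-04). Without the 2 arrays farthest from the median of the first gene, r was 0.81, 0.84 and 0.92 for the pairs in this order, and r of the deviations from group means was 0.94, 0.96 and 0.88, so the relation was present within groups. The other pairs were less firm. Col4a5 and Col4a6, which lie on opposite strands of the X chromosome with annotated starts 1343 bases apart, had r = 0.78 (adjusted p = 0.0040) and rho = 0.59 (adjusted p = 0.0658), and r = 0.45 without 2 arrays. Col4a3 and Col4a4 had r = 0.65 (adjusted p = 0.0298) and rho = 0.41 (adjusted p = 0.2325), and r = -0.02 without 2 arrays, so that relation rested on those arrays. The Col5a2 probe was detected on 7 of 12 arrays, which limits what its pair can show. Col5a1 and Col5a2 had r = -0.08 (adjusted p = 0.8202) and rho = -0.10 (adjusted p = 0.7670), and r = -0.30 without 2 arrays. The p-values come from permutation tests with 100000 resamples, adjusted over the 6 pairs, and deviations for these pairs had r of 0.85, 0.67 and -0.06.

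The crosslinking enzymes were not called in any comparison. Loxl1, a lysyl oxidase needed for elastic fibres, had 10.97, 12.05 and 12.003 in double cKO uteri, 12.37, 12.32 and 12.13 in the uteri labelled Cdh1 cKO, 12.24, 12.74 and 11.90 in P53 cKO uteri and 12.32, 12.37 and 12.08 in control uteri. The double cKO lay below control without overlap, with replicate 1 the lowest, and the difference of -0.58 ± 0.29 did not pass (adjusted p = 0.349). Without that replicate the difference was -0.23. Lox, the main enzyme of collagen crosslinks, had 12.31, 10.65 and 11.56 in double cKO uteri and 10.78, 10.50 and 11.86 in control uteri, which overlapped. Loxl4 was dim and differed by -0.16.

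The folding and hydroxylation genes differed between double cKO and control by -0.35 to 0.19, and values overlapped in all 6. P4ha1, a catalytic subunit of prolyl 4-hydroxylase, had 7.17, 7.35 and 7.12 in double cKO uteri, 7.70, 7.24 and 7.71 in the uteri labelled Cdh1 cKO, 7.15, 7.93 and 7.42 in P53 cKO uteri and 7.82, 7.56 and 7.26 in control uteri, a difference of -0.33 ± 0.23 (adjusted p = 0.520). Its further probe gave 0.48, so the sign depended on the probe. Serpinh1, which encodes HSP47, had 13.31, 14.62 and 14.18 in double cKO uteri, 14.72, 13.59 and 14.29 in the uteri labelled Cdh1 cKO, 14.12, 14.83 and 14.34 in P53 cKO uteri and 14.11, 14.11 and 14.21 in control uteri. The control values were tight and the double cKO values lay on both sides of them, with a difference of -0.11 ± 0.35 (adjusted p = 0.927). Plod1, Plod2 and Plod3, the lysyl hydroxylases, differed by -0.01, -0.31 and 0.19.

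Of the brightest probes of the proteoglycans, that of Lum had values that separated the groups. Lumican binds collagen fibrils and regulates their spacing. Its signals were 12.97, 12.45 and 12.60 in double cKO uteri, 12.30, 12.89 and 12.92 in the uteri labelled Cdh1 cKO, 13.22, 13.30 and 13.09 in P53 cKO uteri and 13.54, 13.49 and 13.18 in control uteri. As with Col14a1, the 6 uteri labelled Cdh1- lay below the 6 labelled Cdh1+ without overlap, but by a smaller step. The differences from control were -0.73 ± 0.21 in double cKO (adjusted p = 0.0950), -0.70 ± 0.21 in the Cdh1 cKO (adjusted p = 0.357) and -0.20 ± 0.21 in P53 cKO (adjusted p = 0.9995). Those from P53 cKO were -0.53 ± 0.21 in double cKO (adjusted p = 0.303) and -0.50 ± 0.21 in the Cdh1 cKO (adjusted p = 0.816). The double cKO differed from the uteri labelled Cdh1 cKO by -0.03 ± 0.21, with an interval from -0.49 to 0.43. No difference passed. A further probe of Lum gave -0.91 in double cKO and -0.86 in the uteri labelled Cdh1 cKO, each against control.

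Dcn encodes decorin, the best known small leucine-rich proteoglycan of fibrils. Its brightest probe had 14.19, 13.66 and 13.68 in double cKO uteri, 13.82, 14.10 and 14.09 in the uteri labelled Cdh1 cKO, 14.20, 14.08 and 14.07 in P53 cKO uteri and 14.13, 14.08 and 14.27 in control uteri, which overlapped, and the difference was -0.32 ± 0.17 (adjusted p = 0.383). Its 3 further probes gave -1.74, -0.89 and -0.70. On each of these, double cKO replicate 1 was the highest of its group, with 9.32 beside 7.64 and 7.79 on the probe with the largest difference. Double cKO values lay below control without overlap on the probes at -1.74 and -0.89, and overlapped with control on that at -0.70. Bgn, the related biglycan gene, differed by -0.07 with an interval from -0.47 to 0.33.

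Elastic fibre and matricellular genes were not called. Fbln2, a fibulin that links elastic fibres and basement membranes, had 10.16, 10.19 and 10.15 in double cKO uteri, 11.06, 9.79 and 12.19 in the uteri labelled Cdh1 cKO, 10.73, 12.59 and 10.42 in P53 cKO uteri and 10.82, 10.75 and 11.48 in control uteri. The double cKO values were tight and below control, while the single cKO groups spread widely, and the difference of -0.85 ± 0.62 did not pass (adjusted p = 0.537). Eln, the elastin gene, ranged from 7.43 to 9.93 in double cKO uteri and from 8.54 to 10.38 in control uteri.

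Sparc encodes a collagen-binding matricellular glycoprotein, on chromosome 11 from 55394159 to 55420080. Its brightest probe had 13.86, 13.88 and 13.995 in double cKO uteri, 13.79, 13.20 and 14.48 in the uteri labelled Cdh1 cKO, 13.67, 14.50 and 13.62 in P53 cKO uteri and 13.86, 13.78 and 14.01 in control uteri. The groups overlapped, with a double cKO difference from control of 0.03 ± 0.31 (adjusted p = 0.985). A dimmer probe of the same gene behaved otherwise. It had 5.11, 5.74 and 5.25 in double cKO uteri, 9.19, 7.42 and 9.57 in the uteri labelled Cdh1 cKO, 5.14, 6.71 and 4.94 in P53 cKO uteri and 8.10, 7.34 and 8.87 in control uteri. On this probe the 6 uteri labelled P53- were below the 6 labelled P53+ without overlap, and the differences from control were -2.74 ± 0.61 in double cKO, 0.62 ± 0.61 in the uteri labelled Cdh1 cKO and -2.51 ± 0.61 in P53 cKO. The remaining Sparc probe gave -0.09, 0.14 and 0.13 for the same groups. The Sparc probes disagree, and what the dimmer probe measures could not be settled from these arrays. Its values are therefore not given as a level of the gene, and no direction for Sparc is given.

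**Figure D4:**
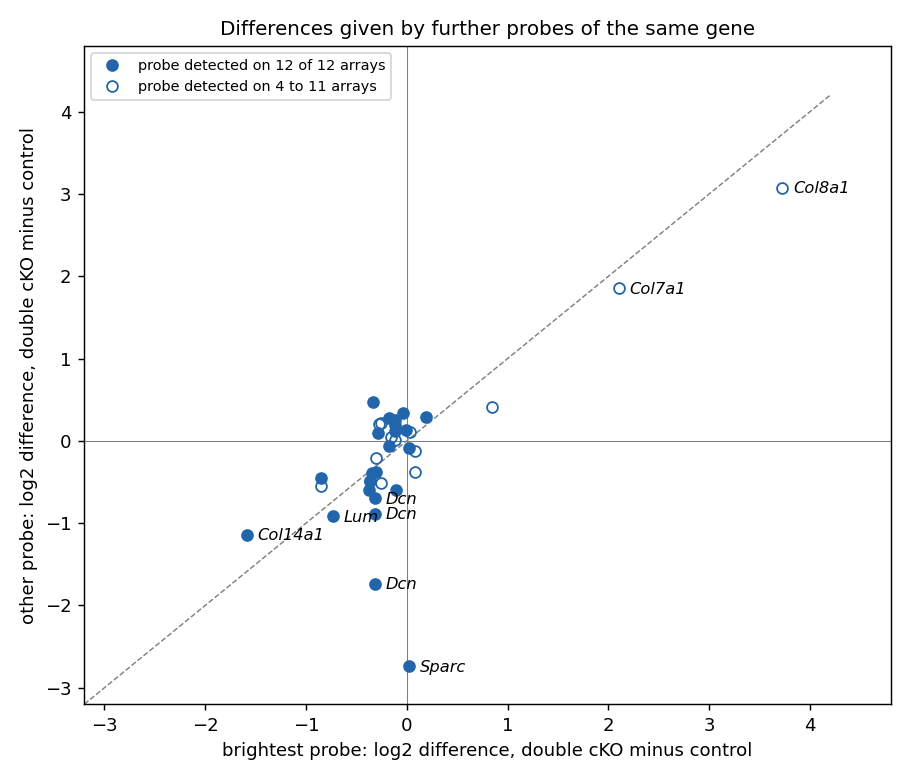
Log2 difference of double cKO from control for each further detected probe (y axis) against that of the brightest probe of the same gene (x axis), 37 probes of 25 genes, with a dashed line of equality and open symbols for probes detected on 4 to 11 arrays. Col8a1, Col7a1, Col14a1 and Lum lie near the line, and 1 Sparc probe at -2.74 and 1 Dcn probe at -1.74 lie over 1 unit below it.

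Further detected probes existed for 25 of the 39 genes, 37 probes in all. In double cKO against control 21 of the 37 had the same sign as the brightest probe. Of these probes 2 lay over 1 log2 unit from the brightest, those of Dcn and Sparc.

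Genes of the same pathway outside the set were examined as 8 lists, for double cKO against control. In that comparison 1.91% of all genes were called higher and 0.820% lower. Of 9 detected further collagen genes, 1 was called higher and none lower. It was Col10a1, a short-chain network collagen like collagen VIII and known from hypertrophic cartilage, with 5.41, 5.80 and 6.56 in double cKO uteri. It was detected on those 3 arrays and on none of the other 9, and was at least 2.08-fold higher than in control, at least 2.05-fold higher than in the Cdh1 cKO and at least 2.06-fold higher than in P53 cKO. It passed the detection filter through the double cKO arrays alone and so had to differ, and its call is a description that supports nothing further. These bounds set the double cKO mean against the dimmest detected signal of each array.

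Of 10 other elastic fibre genes 1 fell, Ltbp4, a latent TGF-beta binding protein, with 11.78, 10.97 and 11.09 in double cKO uteri and 12.84, 12.64 and 12.48 in control uteri (-1.37 ± 0.23, adjusted p = 0.0120). Of 19 matrix glycoproteins 2 fell, vitronectin (Vtn) by -1.29 ± 0.22 (adjusted p = 0.0106) and thrombospondin 3 (Thbs3) by -1.45 ± 0.26 (adjusted p = 0.0170). Tenascin C (Tnc) was at 1.83 ± 0.57 (adjusted p = 0.120). Of 12 TGF-beta signalling genes 1 rose, the ligand gene Tgfb1, with 8.51, 8.60 and 8.73 in double cKO uteri and 7.79, 8.06 and 7.52 in control uteri (0.82 ± 0.17, adjusted p = 0.0317). None was called among 18 procollagen processing genes (1 higher and 5 lower at an unadjusted p below 0.05), 6 other small leucine-rich proteoglycans (0 and 0), 18 laminins and other basement membrane genes (2 and 6) and 8 collagen receptors (3 and 1). These counts stand beside 17.1% of all genes with an unadjusted p below 0.05 in limma. The median differences of the 8 lists lay between -0.25 and 0.37, where all genes had -0.04. Among laminins, Lama5 at 0.90 ± 0.21 (adjusted p = 0.0519) and Lama1 at 1.62 ± 0.39 (adjusted p = 0.0548) were near the threshold, as was the collagen receptor subunit Itga2 at 1.81 ± 0.46 (adjusted p = 0.0634). The 18 laminins and other basement membrane genes went both ways, with 9 above 0, 9 below and differences from -1.73 to 1.62.

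Markers of other cells moved with the double cKO. Of 12 macrophage markers 11 were detected, and 6 were called higher in double cKO against control, beside 1.91% of all genes. Their summed signal was 33443 to 36460 in double cKO uteri, 10653 to 20024 in the uteri labelled Cdh1 cKO, 11152 to 15002 in P53 cKO uteri and 11057 to 12586 in control uteri, with Cd300lf not detected outside the double cKO. Of 12 neutrophil markers 9 were detected and 7 were called higher, with a summed signal of 5692 to 9983 in double cKO uteri, 759 to 2556 in the uteri labelled Cdh1 cKO, 588 to 2787 in P53 cKO uteri and 829 to 1221 in control uteri, and Cxcr2 not detected outside the double cKO. In both lists the double cKO lay above the other 3 groups, as it did for Col8a1, while those 3 groups overlapped in summed signal. Neutrophil markers were also taken as a median over the list, relative to each gene's mean over the arrays. By that measure the uteri labelled Cdh1 cKO, at -0.79 to 0.26, lay above control, at -1.25 to -0.91. In 6 of the 9 their values lay above control without overlap, against 5.23% of all genes. The 6 include Cxcr2, which was not detected on any array of these groups, so its separation is one of background signal. Cd300lf and Cxcr2 passed the detection filter through the double cKO arrays alone and so had to differ. A call of either supports nothing further. Both were kept among the 11 macrophage and 9 neutrophil markers, so the counts, sums and medians of these lists were taken with them included. The part of these markers in the Col8a1 and Col10a1 results was not tested.

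Of the cells that make and hold the matrix, 12 of 12 fibroblast and uterine stroma markers were detected. Their summed signal was 10430 to 13405 in double cKO uteri, 11020 to 11358 in the uteri labelled Cdh1 cKO, 12291 to 16251 in P53 cKO uteri and 11187 to 19117 in control uteri. In double cKO against control 1 of the 12, Cd34, fell and none rose, and the median difference was -0.59. Over all genes 0.820% were called lower and 1.91% higher. Of 12 endothelial markers 11 were detected (Erg had no detected probe), 1, Cdh5, fell and none rose, with a summed signal of 8039 to 10530 in double cKO uteri and 10401 to 16812 in control uteri. Summed signals of double cKO and control overlapped in both lists. As a median over the list, relative to each gene's mean over the arrays, endothelial markers did not overlap, at -0.61, -0.20 and -0.38 in double cKO uteri and 0.42, 0.57 and -0.16 in control uteri, and their median difference was -0.77. Of the 11 endothelial markers, 6 lay below control without overlap and 1 above, against 14.2% and 11.5% of all genes. The part of these lists in the Col14a1 result was not tested. Smooth muscle markers, 12 of 12 detected with none called, summed to 80555 to 89676 in double cKO uteri and 76106 to 84708 in control uteri. Epithelial markers, 11 of 12 detected with 1 called higher, summed to 26930 to 37407 in double cKO uteri, 18006 to 35151 in the uteri labelled Cdh1 cKO, 17377 to 25021 in P53 cKO uteri and 13649 to 28043 in control uteri, and their part in the Col7a1 values was not tested.

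Estrogen response genes, 10 of 12 detected, had a median difference of 1.40 between double cKO and control with none called (6 higher and 1 lower at an unadjusted p below 0.05). Proliferation genes, 10 of 15 detected, had a median of -0.06, and mesothelial genes, 5 of 8 detected, one of -0.51, with none called and 0 and 1 at an unadjusted p below 0.05. An unadjusted p below 0.05 was found in 17.1% of all genes in this comparison. Of 8 adipocyte markers 2 were detected, and neither was detected in the double cKO.

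**Figure D5:**
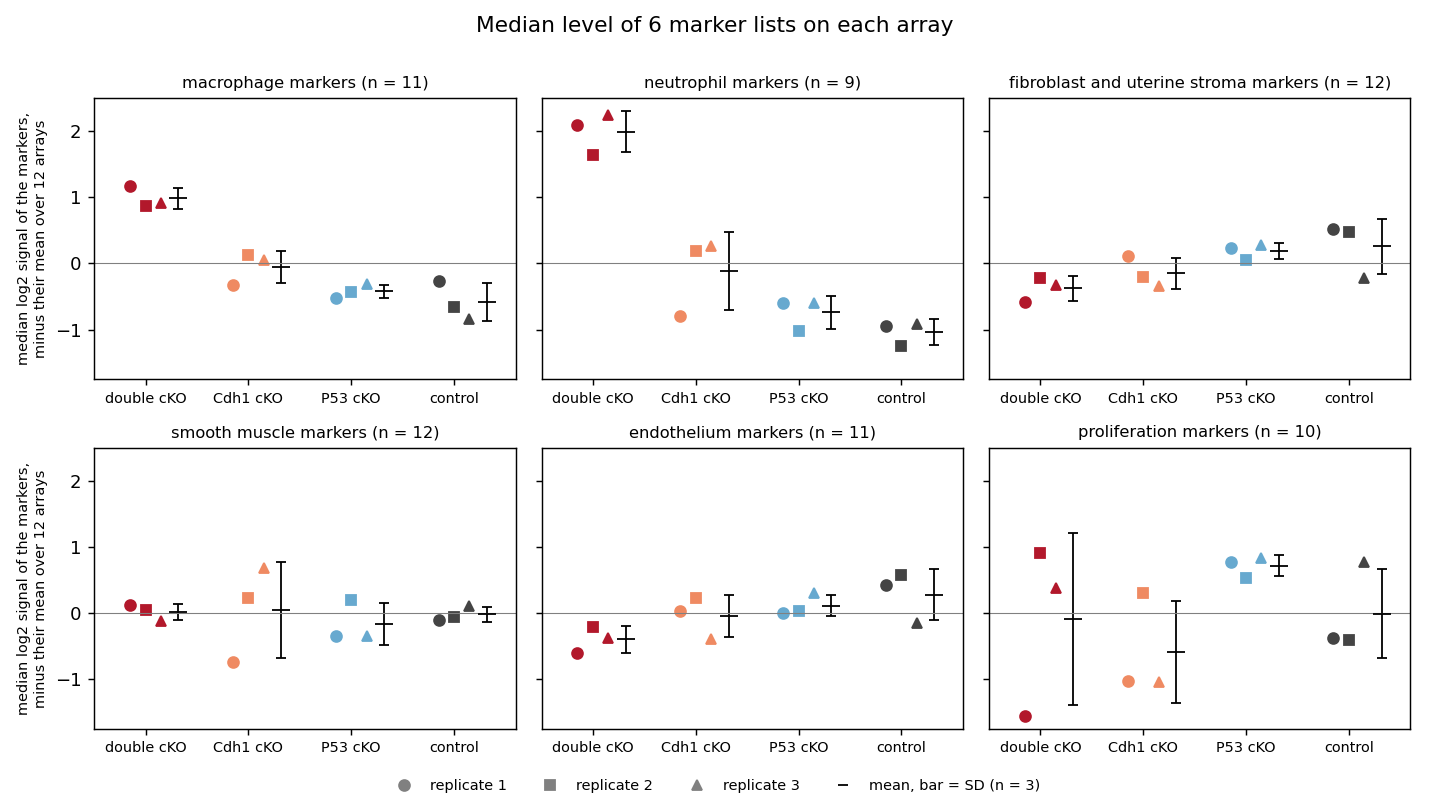
Median log2 signal of 6 marker lists on each array, relative to their mean over the 12 arrays (y axis), by group, with symbols for replicates and lines for mean and SD (n = 3). Macrophage and neutrophil medians of the double cKO, 0.87 to 1.17 and 1.64 to 2.24, lie above all other arrays, and double cKO replicate 1 is the lowest array for proliferation at -1.55.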

How the data were processed

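Signal was measured in 12 uteri on 12 Illumina bead arrays. The authors deposited a mean intensity per probe and array that is not normalised, with a detection p-value and a bead number for each, per the file headers. A median of 41 to 43 beads stood behind a probe, and the number of arrays limits the precision. Bead standard errors, in 12 columns, were left unused. The authors also deposited processed log2 values of the same arrays. The submitters' processing notes list limma 3.10.2. The sources used here do not give the background correction and normalization behind those values. Each column of them had a median of 4.72, and they differed from the values computed here by at most 0.0234, so they are uncentred log2 signals with no ratio.

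Here the intensities were background corrected from the detection p-values, given an offset of 16, quantile normalised and log2 transformed with neqc of limma 3.58.1 in R 4.3.3. The platform annotation gave 1 symbol for 34885 of 45281 probes, several for 18 and none for 10378. Symbols were checked by gene ID against RefSeq genes of GRCm38.p6, which held 99.8% of them. A detection p below 0.05 was required on 3 or more of the 12 arrays, which kept 23229 probes, and the probe with the highest mean in the deposited log2 values stood for its gene. A limma model with 1 mean per group was fitted to all 12 arrays and moderated with eBayes (8 residual degrees of freedom, prior 2.84). There were 7 comparisons, with 2-sided p-values. The model was tested on simulated data. Chain pairs were correlated in Python 3.11.15 with SciPy 1.17.1.

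Members, roles and gene lists were chosen with earlier results of these data known. Values on every array are given for called members, for the member of each role with the smallest p in double cKO against control, for its brightest member and for partners of these at a shared start. Some others are given by single values, and Col8a2, Col16a1, Col15a1, Col17a1, Col4a3, Col5a2, Col3a1, Lox, Bgn and Eln were added after their values were seen. Up to 3 genes were named in each further list. No label states that uteri were paired by replicate number. Between the uteri labelled Cdh1 cKO and control, deviations of same-numbered arrays from their group means correlated at 0.22, 0.33 and 0.30. Those of differently numbered arrays of these groups correlated at -0.27 to -0.06. Between the Cdh1 cKO and P53 cKO, differently numbered arrays correlated at up to 0.56, so such values alone cannot settle whether uteri were paired. In no other comparison were all same-numbered values positive. Alternatives were background correction, offset, normalisation, the deposited values, filters, probe choice, spread, arrays fitted, array weights, a replicate block and leaving out each array.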

Additional observations from a re-analysis of the deposited data

Results flagged for a closer look

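Col7a1 drew attention because the label Cdh1- went with opposite directions in the presence and absence of P53. Every double cKO uterus was above every P53 cKO uterus (a log2 difference of 2.49 ± 0.70), while every uterus labelled Cdh1 cKO was below every control uterus (-1.18 ± 0.70). Leaving out 1 array moved the second difference to between -1.53 and -0.58, the smaller being without Cdh1 cKO replicate 1. The difference between these differences, the interaction, was 3.67 ± 0.98 and did not pass after adjustment over all genes in limma (adjusted p = 0.534, unadjusted p = 0.0034). The further Col7a1 probe gave 2.07 and -1.02 for the same contrasts. In the uteri labelled Cdh1 cKO the Cdh1 signal was not below control.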

How the results depend on the processing

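Col8a1 in double cKO against control was called under 18 of 18 alternatives, with differences from 2.18 to 4.07, and Col14a1 under 16 of 18, the exceptions being without control replicate 2 and the replicate block fitted to only the arrays compared (adjusted p = 0.0655), an alternative chosen after seeing the data. Col7a1 in double cKO against control passed under 3 of 18, which were array weights (adjusted p = 4.71e-04) and only the arrays compared without and with the block (0.0410 and 0.0436). The counts of members called moved most with array weights, to 11 in double cKO against control, 7 against P53 cKO, 2 against the uteri labelled Cdh1 cKO (Col7a1 added) and 1 in the interaction (Col8a1), while all genes called against control and P53 cKO became 4210 and 3672, where the main values were 333 and 176. The estimation of these weights stopped before it reached its tolerance. Against P53 cKO the main count of 2 was 1 with the mean of detected probes, with only the arrays compared and with the replicate block, and 0 with that block on only the arrays compared (Col8a1 at adjusted p = 0.0550). Against the uteri labelled Cdh1 cKO the count of 1 was 2 with the mean of detected probes, and 0 with only the arrays compared, where Col8a1 was lost without and with the block (adjusted p = 0.0981 and 0.153). Leaving out 1 array gave 1 to 2 members against control and 1 to 2 against P53 cKO. Fitted to all arrays, the block changed no other member's call, and with it 0 members were called between the Cdh1 cKO and control. Signs turned only in differences that did not pass. With the mean of probes Col14a1 in double cKO against the uteri labelled Cdh1 cKO was 0.058, and against control Col6a1 was 0.011, P4ha1 0.074 and Sparc -0.93. With array weights Col18a1 in double cKO against P53 cKO was -0.0022, Col7a1 in P53 cKO against control 0.0032, and Serpinh1 in double cKO against control 0.064. Leaving out 1 array gave ranges across 0 for Col14a1 (-0.38 to 0.14) and Lum (-0.23 to 0.081) in double cKO against the uteri labelled Cdh1 cKO, Col18a1 in double cKO against P53 cKO (-0.15 to 0.36), Col7a1 in P53 cKO against control (-1.09 to 0.35), and Col1a1 (-0.15 to 0.20), Serpinh1 (-0.40 to 0.26) and Sparc (-0.028 to 0.090) in double cKO against control. The cause was not tested. Dim probes such as those of Col11a1 and Col5a2 were detected on 4 and 7 of 12 arrays, which limits what their signal can show.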
